A study of Mus musculus with 32 samples.

Results

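To follow the proteoglycans and matricellular proteins that melanoma cells make in response to Activin-A and IFN-γ, 9 genes were read from the deposited count table: Bgn, Dcn, Vcan, Fn1, Sparc, Smoc2, Tnc, Postn and Fbn1. They were chosen by name from their roles in the extracellular matrix (ECM), with earlier results of these data known. Counts among them are therefore descriptions where they are set beside shares of all genes. All 9 were among the 12451 genes of the table. The cells were YUMM3.3, an established Braf-mutant mouse melanoma line. Their mRNA was measured by BRB-seq, a method in which each well receives a barcode and the 3′ ends of transcripts are counted in a pooled library. The 32 wells formed 8 groups of 4: untreated cells (NT), cells given 40 ng/ml Activin-A, cells given 20 ng/ml IFN-γ, and cells given both factors at these doses, each for 4 hrs and for 12 hrs. The Activin-A dose is that of the labels, and other text of the study gives a higher one. All groups were of this 1 line, and nothing in the labels separates the 4 wells of a group by culture or day, so that p-values measure the spread between wells.

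The ECM holds fibrillar scaffolds together with proteoglycans, core proteins that carry long sulfated sugar chains called glycosaminoglycans. Matricellular proteins are secreted into this matrix but act mainly by tuning adhesion, growth factors and collagen assembly. TGF-β family ligands such as Activin-A signal through receptor kinases to Smad2 and Smad3 and are known inducers of matrix genes in many cell types, whereas IFN-γ is a cytokine of activated lymphocytes that induces immune genes in many cell types.

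Wells held between 654539 and 1455074 counts, and 3 counts, taken as the floor of detection, amounted to 2.06 to 4.58 CPM (counts scaled to a common library size). The floor and the intervals of count ratios cover counting error only, whereas intervals of log2 fold changes include the spread between wells. The treatments registered in the wells. Ccn2, a Smad target, rose with Activin-A by 1.77 on the log2 scale at 4 hrs and by 1.88 at 12 hrs, and Irf1, an interferon-induced transcription factor, rose with IFN-γ by 4.22 and 3.96. Activin-A well 1 at 4 hrs stood apart from its group. Its chi-squared per gene against the other 3 wells was 2.45 to 2.89, while the pairs among those 3 gave 1.16 to 1.42. Values of the 9 genes reported for 4 hrs that moved by over 1.5 times without this well are given with and without it. All 7 markers of the melanocyte lineage were in the table, led by Pmel with a median of 122 CPM and Tyrp1 with 91.9 CPM. The 3 endothelial markers (Pecam1, Cdh5, Kdr) were not in the table. Of 7 fibroblast markers, Col1a1, Pdgfra, Col1a2 and Pdgfrb were listed and Thy1, Lum and Dpt were not. Cspg4 was the listed one of 3 pericyte markers, and 3 of 4 leukocyte markers were listed at medians of at most 5.98 CPM.

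Of the 9 genes, 6 passed the filter on low counts (Bgn, Vcan, Fn1, Sparc, Smoc2, Fbn1), while Dcn, Tnc and Postn did not. Values are CPM normalized by TMM and are compared within a gene, not between genes. A gene was called changed where the adjusted p of edgeR's quasi-likelihood test was under 0.05. Among the 6 genes tested, Bgn and Smoc2 rose with Activin-A and Sparc and Smoc2 fell with IFN-γ at 12 hrs, and Smoc2 had already risen with Activin-A at 4 hrs. Vcan and Fbn1 were called in no comparison, and Fn1 in 1.

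**Figure D1:**
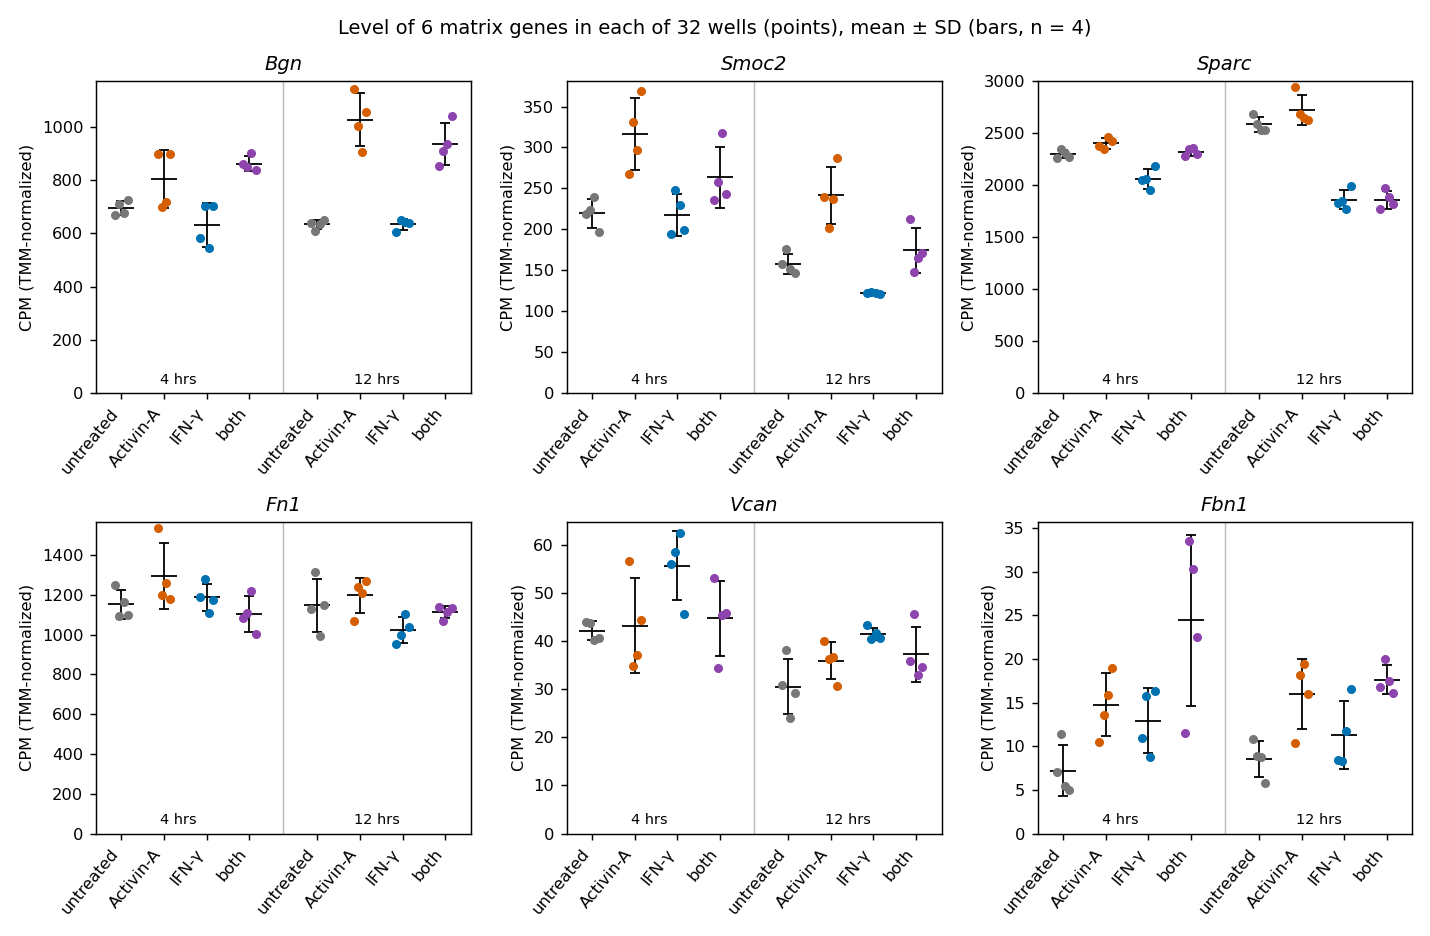
TMM-normalized CPM (vertical axes, from 0) of Bgn, Smoc2, Sparc, Fn1, Vcan and Fbn1 in each of 32 wells, with the mean ± SD of the 4 wells per group as bars. Bgn wells with Activin-A at 12 hrs lie at 905 to 1144 CPM, above the untreated wells at 611 to 651 CPM, and Sparc wells with IFN-γ at 12 hrs lie at 1772 to 1991 CPM, below the untreated wells at 2531 to 2691 CPM.

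Bgn encodes biglycan, a small leucine-rich proteoglycan (SLRP) that binds collagen and TGF-β and, when soluble, can engage Toll-like receptors. It is annotated at chrX:73483602-73495933 on the plus strand of GRCm38. At 12 hrs Bgn had the clearest response to Activin-A by adjusted p among the 6 genes tested. The 300 bases around its start site are therefore given here beside those of Sparc, whose response was to IFN-γ. Both are RefSeq sequences of GRCm38.p6, written 5′ to 3′ from 250 bases before the start site to 50 after it, Bgn at chrX:73483351-73483650 (plus strand) and Sparc at chr11:55420031-55420330 (minus strand). Capitals mark each GTCT, the core of the Smad binding element, or its reverse complement AGAC.
Bgn: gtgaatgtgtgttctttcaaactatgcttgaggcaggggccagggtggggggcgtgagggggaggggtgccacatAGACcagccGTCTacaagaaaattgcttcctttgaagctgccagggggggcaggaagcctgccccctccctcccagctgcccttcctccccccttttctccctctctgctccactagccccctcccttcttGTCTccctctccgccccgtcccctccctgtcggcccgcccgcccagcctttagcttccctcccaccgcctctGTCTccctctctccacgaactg
Sparc: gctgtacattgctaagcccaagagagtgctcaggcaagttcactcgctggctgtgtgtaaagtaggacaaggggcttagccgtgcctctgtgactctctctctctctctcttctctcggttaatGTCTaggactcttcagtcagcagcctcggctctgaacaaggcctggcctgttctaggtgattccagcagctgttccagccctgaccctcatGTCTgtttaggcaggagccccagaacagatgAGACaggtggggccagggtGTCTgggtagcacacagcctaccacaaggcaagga
Each window held 4 such cores. In Bgn they began at positions -175, -166, -44 and 28 from the start site, and in Sparc at -126, -35, -4 and 15. The core is 4 letters long and occurred in 88% of 32851 promoter windows of this length, with a median of 2, so that its presence does not set the genes apart. The longer element CAGACA, which overlaps the core, had 2 matches in the Sparc window, was not matched in the Bgn window, and was found in 21% of all windows. Neither window held GGCGC (36.9% of all windows), the AP-1 site TGANTCA (7.81%) or the interferon-stimulated response element ISRE (3.44%) on either strand. The Sparc start site in RefSeq lies inside the gene as annotated by GENCODE. RefSeq windows were matched for 6 of the 9 genes.

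Bgn mRNA at 12 hrs was 639, 611, 637 and 651 CPM in untreated wells and 1144, 1003, 905 and 1058 CPM with Activin-A. Every Activin-A well was above every untreated well. The mean rose from 634.7 ± 16.9 to 1028 ± 99.99 CPM (SD, n = 4), a 1.63-fold change or 0.70 on the log2 scale (SE 0.06, edgeR adjusted p = 4.87e-18). Activin-A changed 2.41% of all 8971 genes tested at this time, and 2 of the 6 genes here, Bgn and Smoc2, both upwards. For these 6 genes the median log2 fold change was 0.42, against -0.003 for all genes tested. Wells did not overlap for these same 2 genes, while 6.77% of all genes tested had no overlap. In bulk wells, more transcript per cell and more cells that make it cannot be told apart.

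With IFN-γ also present, Bgn at 12 hrs was 853, 910, 938 and 1043 CPM, compared to 605, 653, 643 and 639 CPM with IFN-γ alone. The groups again did not overlap, and the difference was 0.56 on the log2 scale (SE 0.06, adjusted p = 2.03e-12). This comparison called 1.03% of all genes tested and 2 of the 6 genes, Bgn and Smoc2. For comparisons with both factors the share of all genes without overlap is not given, so that non-overlap there is a description. IFN-γ itself left Bgn at 634.7 ± 20.9 CPM at 12 hrs, a difference of 0.00 (95% interval -0.12 to 0.12, adjusted p = 0.985). Wells with both factors differed from those with Activin-A alone by -0.14 (adjusted p = 0.137). This difference passed the threshold without Activin-A well 3 (-0.19, adjusted p = 0.0246) or without well 4 of the combined treatment (-0.19, adjusted p = 0.0317). With each well left out in turn it ranged from -0.19 to -0.07, and its adjusted p reached 0.599.

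At 4 hrs the Bgn response was smaller and uneven. Untreated wells had 671, 709, 677 and 724 CPM, and Activin-A wells had 899, 701, 718 and 899 CPM. Activin-A wells 1 and 4 lay above all untreated wells and wells 2 and 3 within their range, with a log2 fold change of 0.22 (SE 0.07, adjusted p = 0.135). Without Activin-A well 1 the value was 0.15 (adjusted p = 0.352). The change passed the threshold without well 2 (0.27, adjusted p = 0.0445) and without well 3 (0.27, adjusted p = 0.0404), and over all wells left out in turn its adjusted p ranged from 0.0404 to 0.403. In the presence of IFN-γ the 4 hr wells did not overlap. Wells with both factors had 863, 849, 903 and 838 CPM and IFN-γ wells had 581, 704, 544 and 702 CPM, a rise of 0.44 (SE 0.07, adjusted p = 0.000121) in which Bgn was the 1 gene of 6 called, compared to 0.81% of all 9137 genes. Relative to Activin-A alone, Bgn with both factors differed by 0.10 (adjusted p = 0.576), or by 0.16 without Activin-A well 1 (adjusted p = 0.195). With each well left out in turn this difference ranged from 0.04 to 0.16, and its adjusted p reached 0.853.

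The effect of Activin-A on Bgn was larger at 12 hrs than at 4 hrs, by 0.49 on the log2 scale (SE 0.10, adjusted p = 0.0107). Just 0.0214% of 9332 genes were called in this contrast, 2 genes of which Bgn was 1. The call was lost in 5 of 16 fits that each left out a well: without untreated well 2 (adjusted p = 0.0545) or 4 (0.0755) at 4 hrs, without Activin-A well 2 (0.0904) or 3 (0.144) at 4 hrs, and without Activin-A well 1 at 12 hrs (0.193). The difference itself stayed between 0.43 and 0.55, and without Activin-A well 1 at 4 hrs it was 0.54 (adjusted p = 0.000434). Under IFN-γ no member was called in the corresponding contrast of the 2 times, in which 0.0964% of all genes were called. There, the value for Bgn was 0.12 (95% interval -0.07 to 0.32, adjusted p = 0.899). Sparc (-0.17, adjusted p = 0.589) and Fn1 (0.23, adjusted p = 0.591) had an unadjusted p under 0.05, compared to 622 of all genes, and DESeq2 called 0 members and 5 genes.

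Dcn encodes decorin, the SLRP most closely related to biglycan, and lies on chromosome 10. Its transcript was at or below 2 counts in 31 of 32 wells. The exception was Activin-A well 4 at 12 hrs with 8 counts, next to 1, 0 and 0 counts in the other wells of that group. All 4 untreated wells at 12 hrs were at 0, and all 4 IFN-γ wells were at 1. No fold change is given, because both groups were at or under the floor in nearly all wells. Among the 13 other SLRPs of a list chosen for this family, such as lumican and fibromodulin, 6 were in the table and 0 passed the filter.

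**Figure D2:**
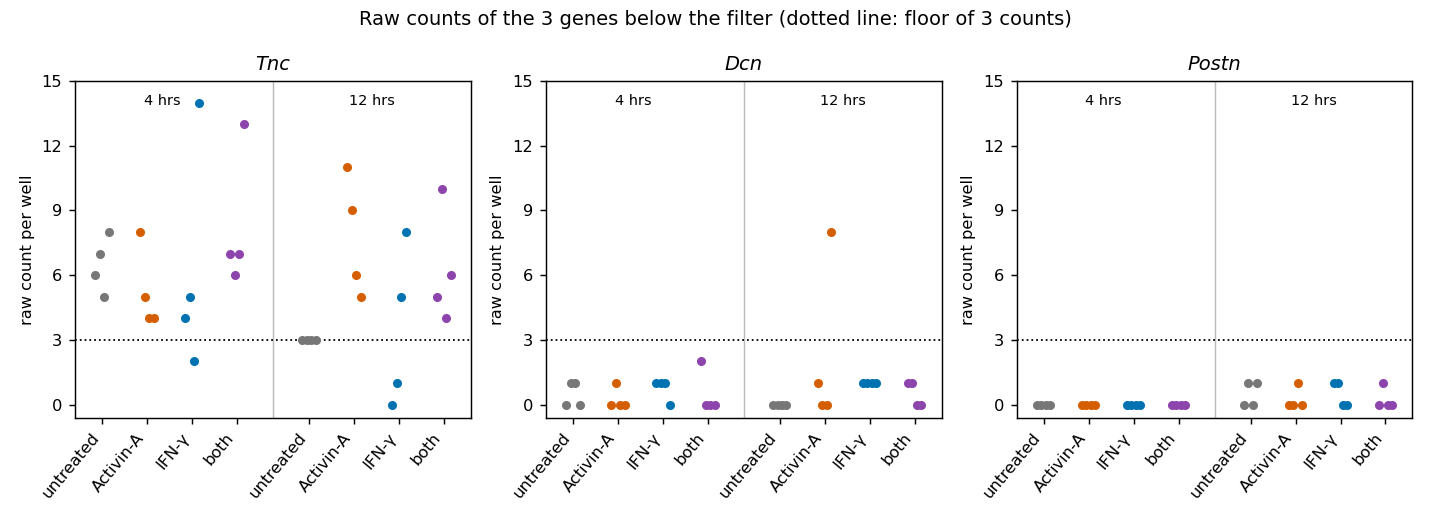
Raw counts per well (vertical axes, same scale) of Tnc, Dcn and Postn in the 8 groups, with the floor of 3 counts as a dotted line. Tnc had 3 counts in each of the untreated wells at 12 hrs and 5 to 11 with Activin-A, Dcn exceeded 2 counts in 1 well, and Postn reached 1 count at most.

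Smoc2 and Sparc are relatives that share an extracellular calcium-binding domain. SMOC2 is a secreted modular protein of the matrix that influences growth factor signaling and cell cycle progression, and SPARC, or osteonectin, binds collagen and regulates its deposition. Smoc2, annotated at chr17:14279506-14404790 on the plus strand of GRCm38, responded to both treatments in opposite directions. At 12 hrs it was 157, 175, 152 and 147 CPM in untreated wells and 239, 202, 238 and 287 CPM with Activin-A. The groups did not overlap, and the mean rose from 157.9 ± 12.4 to 241.3 ± 34.9 CPM (SD, n = 4), by 0.60 on the log2 scale (SE 0.09, adjusted p = 2.66e-07).

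At 4 hrs Smoc2 had already risen with Activin-A, from 218, 223, 239 and 196 CPM to 268, 332, 297 and 369 CPM. The difference was 0.52 (SE 0.09, adjusted p = 0.000288), and without Activin-A well 1 it was 0.60 (adjusted p = 1.57e-06). Smoc2 was the 1 of 6 genes called in this comparison, in which 1.64% of all genes were called. Wells of Smoc2 and of Sparc did not overlap here (2 of 6 genes, compared to 6.22% of all genes). The change in Sparc was 0.06 (adjusted p = 0.702). Cspg4, the listed pericyte marker and itself a proteoglycan, also rose with Activin-A at 4 hrs (0.52, adjusted p = 0.00823). With both factors it fell relative to Activin-A alone by 0.41 at 4 hrs (adjusted p = 0.0241) and by 0.37 at 12 hrs (adjusted p = 0.0428), and its part in the Smoc2 result was not tested.

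IFN-γ lowered Smoc2 at 12 hrs to 123, 123, 122 and 121 CPM, all below the untreated wells. The change was -0.38 (SE 0.10, adjusted p = 0.0049), and the highest adjusted p with a well left out was 0.0481. At 4 hrs Smoc2 was 217.5 ± 25.7 CPM with IFN-γ and 219.3 ± 17.7 CPM without it (-0.01, 95% interval -0.21 to 0.19, adjusted p = 0.991). The change of the IFN-γ effect between the times was -0.36 for Smoc2, but its adjusted p was 0.508.

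When both factors were given for 12 hrs, Smoc2 was 213, 148, 165 and 171 CPM. All these wells were above the wells with IFN-γ alone, by 0.52 on the log2 scale (SE 0.10, adjusted p = 0.000505). Compared to Activin-A alone Smoc2 fell by 0.46 (SE 0.09, adjusted p = 4.18e-05), although well 1 with both factors lay above Activin-A well 2. At 4 hrs Smoc2 with both factors was 0.28 above IFN-γ alone (adjusted p = 0.231) and -0.24 relative to Activin-A alone (adjusted p = 0.116). The latter passed the threshold without Activin-A well 1 (-0.33, adjusted p = 0.00768) and without well 3 of the combined treatment (-0.35, adjusted p = 0.0114), and was smallest without Activin-A well 4 (-0.15, adjusted p = 0.476). The former was smallest without well 3 of the combined treatment (0.18, adjusted p = 0.663).

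Sparc, annotated at chr11:55394500-55423183 on the minus strand of GRCm38, was lowered by IFN-γ at 12 hrs with or without Activin-A. Untreated wells had 2691, 2586, 2531 and 2536 CPM, and IFN-γ wells had 1828, 1851, 1772 and 1991 CPM. The groups were far apart, and the mean fell from 2586 ± 74.1 to 1861 ± 93.1 CPM (SD, n = 4), a change of -0.47 on the log2 scale (SE 0.05, adjusted p = 9.21e-15). IFN-γ changed 9.25% of all genes tested at 12 hrs and 2 of the 6 genes, Sparc and Smoc2, both downwards. Wells of 3 of the 6 did not overlap (Sparc and Smoc2 lower, Vcan higher), compared to 12.4% of all genes.

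With both factors Sparc was 1766, 1969, 1885 and 1817 CPM at 12 hrs, and with Activin-A alone it was 2945, 2684, 2646 and 2631 CPM. Again there was no overlap, and the change was -0.55 (SE 0.05, adjusted p = 3.5e-18). Sparc and Smoc2 were the 2 of 6 genes called in this comparison, both downwards, when 9.62% of all genes were called. Activin-A alone left Sparc 0.08 above untreated cells at 12 hrs (95% interval -0.01 to 0.17, adjusted p = 0.537), and adding Activin-A to IFN-γ gave 0.00 (95% interval -0.09 to 0.10, adjusted p = 0.997). At 4 hrs Sparc was 2281 to 2363 CPM with both factors and 1954 to 2186 CPM with IFN-γ alone. This difference of 0.17 (SE 0.05, adjusted p = 0.11) passed the threshold with the 8 compared samples alone (0.18, adjusted p = 0.0302). With a well left out its adjusted p ranged from 0.0788 to 0.326.

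At 4 hrs the Sparc wells with IFN-γ (2052, 2058, 1954 and 2186 CPM) already lay below the untreated wells (2262, 2346, 2310 and 2274 CPM). The change of -0.15 (SE 0.05) missed the threshold with an adjusted p of 0.0882. It passed with DESeq2 (0.0261), with all 32 samples in the fit (0.0325), with the 8 compared samples alone (0.0291) and without IFN-γ well 4 (0.0483), and its adjusted p over all alternatives ranged from 0.0261 to 0.274. IFN-γ at 4 hrs called 5.06% of all genes and 0 of the 6, of which 3 had an unadjusted p under 0.05 and DESeq2 called 1, compared to 1217 and 377 of all 9137 genes. Wells did not overlap for 2 of the 6, Sparc and Vcan, compared to 9.4% of all genes. The IFN-γ effect on Sparc was stronger at 12 hrs than at 4 hrs by -0.31 on the log2 scale (SE 0.07, adjusted p = 0.00772). It was called in all 16 fits with a well left out, while 0.579% of all genes were called.

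At 12 hrs summed fibroblast markers were lower with IFN-γ than in untreated wells, and lower with both factors than with Activin-A. Sparc and Smoc2 were lower in the same comparisons, but 0 of the 2 markers tested were called for IFN-γ. The sum did not rise with Smoc2 where Activin-A was added to IFN-γ (Smoc2 means of 122.0 and 174.1 CPM). The summed level of the 4 listed markers was 63.4 to 72.6 CPM in untreated wells and 50.7 to 58.8 CPM with IFN-γ. It was 57.6 to 90.8 CPM with Activin-A and 45.9 to 51.4 CPM with both factors, where Col1a1, the most abundant of them, fell by 0.80 (adjusted p = 0.000433). These genes can be made by melanoma cells as well, and their part in the results was not tested. The 7 melanocyte markers summed to 336.0 to 393.6 CPM in untreated wells and 389.4 to 402.0 CPM with IFN-γ at 12 hrs, and 0 of the 6 tested were called.

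Untreated wells at the 2 times differed in Smoc2 and Sparc, in opposite directions, and the time of treatment cannot be told apart from other differences between these wells. From 4 to 12 hrs, Smoc2 fell by 0.47 (SE 0.10, adjusted p = 0.00104) and Sparc rose by 0.17 (SE 0.05, adjusted p = 0.0235), and these were the 2 called among 6 tested, compared to 4.9% of all genes. Wells of the 2 times did not overlap for 4 of the 6 (Sparc higher, and Smoc2, Bgn and Vcan lower, at 12 hrs), compared to 11% of all genes. The change in Bgn was -0.13 (adjusted p = 0.308). The Sparc call was lost when untreated well 1 (adjusted p = 0.0837) or 4 (0.0741) at 4 hrs, or untreated well 1 (0.108) or 2 (0.0539) at 12 hrs, was left out. Vcan was lower at 12 hrs than at 4 hrs in every untreated well (30.5 ± 5.80 against 42.2 ± 1.96 CPM), with a change of -0.45 (adjusted p = 0.124).

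**Figure D3:**
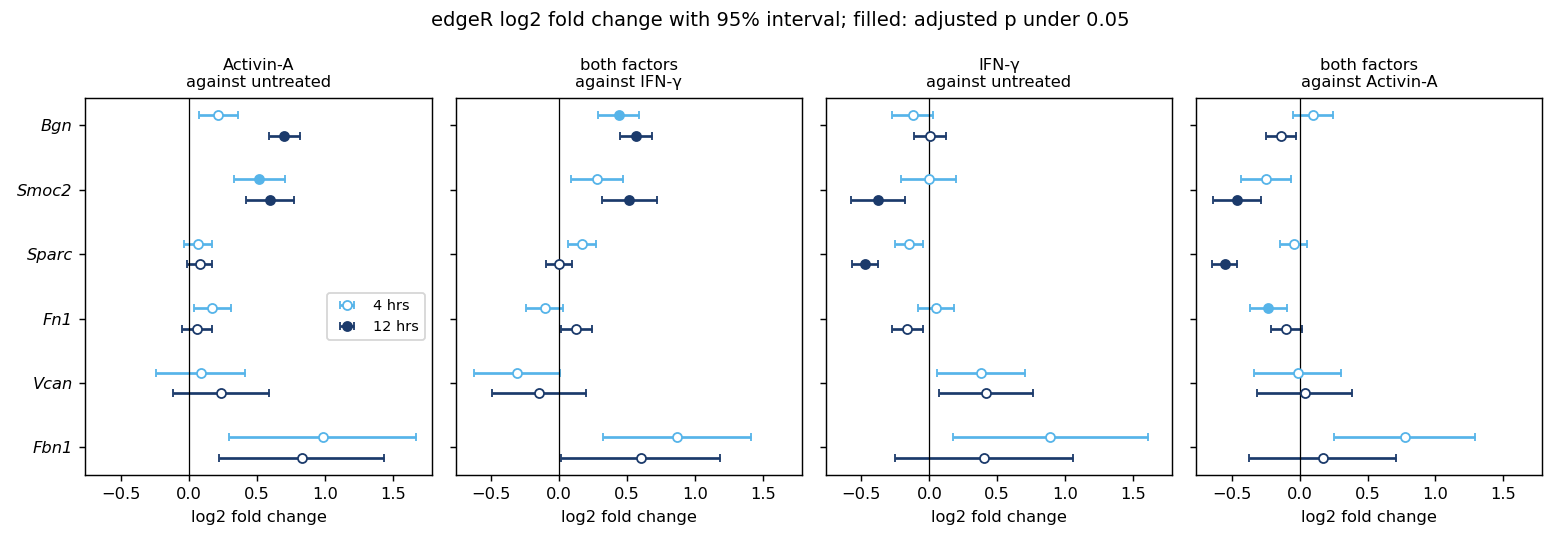
Log2 fold changes of 6 genes (horizontal axes) with 95% intervals from edgeR in 4 comparisons, at 4 hrs (light) and 12 hrs (dark), where filled points have an adjusted p under 0.05. Bgn and Smoc2 lie to the right of 0 in the Activin-A comparisons, Sparc and Smoc2 to the left in the IFN-γ comparisons at 12 hrs, and the intervals of Fbn1 are the widest.

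Tnc and Postn encode tenascin-C and periostin, matricellular proteins typical of remodeling stroma. Tnc had 3, 3, 3 and 3 counts in untreated wells at 12 hrs and 11, 9, 6 and 5 counts with Activin-A. All Activin-A wells were above all untreated wells, and the ratio of summed counts, relative to the group totals, was 2.66 (95% interval from counting error 1.33 to 5.69). In a fit without the filter the adjusted p was 0.168, so that Tnc was not called. With both factors Tnc had 5, 10, 4 and 6 counts, compared to 0, 1, 5 and 8 with IFN-γ alone, and these groups overlapped (ratio 2.01, 95% interval from counting error 1.003 to 4.17). At 4 hrs the ratio for Activin-A was 0.758 (0.405 to 1.40), with 6, 7, 5 and 8 counts in untreated and 8, 5, 4 and 4 in treated wells. Postn was at 0 in all wells at 4 hrs and reached 1 count at most at 12 hrs, below what these depths can resolve.

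Vcan encodes versican, a large chondroitin sulfate proteoglycan that binds hyaluronan, and is annotated on chromosome 13. With IFN-γ its mRNA was 56.04, 58.5, 62.4 and 45.6 CPM at 4 hrs, compared to 44.0, 43.7, 40.3 and 40.7 CPM in untreated wells. At 12 hrs it was 43.3, 40.3, 41.6 and 40.6 CPM, compared to 30.8, 38.1, 24.1 and 29.2 CPM. All IFN-γ wells were above the untreated wells at both times, but the differences of 0.38 (adjusted p = 0.242) and 0.42 (adjusted p = 0.14) did not pass the threshold. With Activin-A alone Vcan differed from untreated cells by 0.09 at 4 hrs (95% interval -0.24 to 0.41), or by -0.11 without Activin-A well 1, and by 0.23 at 12 hrs (95% interval -0.12 to 0.59). With each well left out in turn the value at 12 hrs ranged from 0.15 to 0.37. With both factors at 4 hrs Vcan differed from Activin-A alone by -0.01 (adjusted p = 0.984), or by 0.18 without Activin-A well 1 (adjusted p = 0.741).

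Fn1 encodes fibronectin, the adhesive glycoprotein bound by integrins, and lies on chromosome 1. Wells with both factors at 4 hrs had 1082, 1109, 1217 and 1005 CPM, and Activin-A wells had 1538, 1201, 1259 and 1178 CPM. The groups overlapped, and the change of -0.23 (SE 0.07, adjusted p = 0.0227) was the 1 call among 6 genes in this comparison, in which 6.07% of all genes were called. Without Activin-A well 1 the change was -0.13 (adjusted p = 0.208). The call was also lost, at changes of -0.19 to -0.23, without wells 1 (0.0673), 2 (0.0599) and 4 (0.163) of the combined treatment, with DESeq2 (0.077) and with the 8 compared samples alone (0.0894). At 12 hrs Fn1 was 1023 ± 63.5 CPM with IFN-γ and 1146 ± 133 CPM without it, a change of -0.16 (adjusted p = 0.0564). The adjusted p passed the threshold with the replicate block (0.0452), without the filter (0.027) and with the 8 compared samples alone (0.0444). It also passed without untreated well 3 (0.00541) or IFN-γ well 3 (0.013). With each well left out in turn the change ranged from -0.22 to -0.09, and its adjusted p reached 0.478. With Activin-A alone Fn1 differed from untreated cells by 0.17 at 4 hrs (adjusted p = 0.246), or by 0.07 without Activin-A well 1 (adjusted p = 0.727), and by 0.06 at 12 hrs (95% interval -0.05 to 0.17, adjusted p = 0.757).

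Fbn1 encodes fibrillin-1, the main component of microfibrils, which store latent TGF-β family complexes, and lies on chromosome 2. Its counts were low, between 5 and 39 per well. With Activin-A it was 10.5, 13.6, 15.9 and 19.0 CPM at 4 hrs, compared to 7.04, 11.4, 5.44 and 4.96 CPM in untreated wells. At 12 hrs it was 10.4, 18.1, 19.4 and 15.9 CPM, compared to 10.8, 8.86, 8.75 and 5.84 CPM. The log2 differences of 0.98 (SE 0.34, adjusted p = 0.161) and 0.83 (SE 0.31, adjusted p = 0.17) had wide standard errors, and 1 well overlapped at each time. With both factors at 4 hrs Fbn1 was 11.5, 33.5, 30.3 and 22.5 CPM, 0.87 above IFN-γ alone (adjusted p = 0.135) and 0.77 above Activin-A alone (adjusted p = 0.0659). Without well 1 of the combined treatment these became 1.08 (adjusted p = 0.0259) and 0.98 (adjusted p = 0.00757), while the adjusted p of the former reached 0.488 without well 2 of the combined treatment. The latter also passed with all 32 samples in the fit (0.0461), without the filter (0.049) and without Activin-A well 4 (0.0421), and with a well left out its adjusted p reached 0.354.

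Whether the 2 factors altered each other's effect was tested by an interaction term, the effect of Activin-A with IFN-γ minus that without it. At 4 hrs 0 of the 6 genes and 0% of all genes were called. At an unadjusted p under 0.05 there were 2 of the 6 (Fn1 -0.28, adjusted p = 0.824, and Bgn 0.22, adjusted p = 0.89) and 505 of all genes, and DESeq2 called 0. Without Activin-A well 1 the Fn1 value was -0.17 (adjusted p = 0.846). At 12 hrs 0 of the 6 and 0.0111% of all genes, or 1 gene, were called, with 0 of the 6 and 612 of all genes at an unadjusted p under 0.05, and DESeq2 called 0.

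The matrix genes around these 9 were read from lists chosen by function, to be set against the shares of all genes given above (2.41% for Activin-A and 9.25% for IFN-γ at 12 hrs, 1.64% and 5.06% at 4 hrs). The lists were chosen with earlier results of these data known, so that counts beside these shares are descriptions. Ccn2, in the matricellular list, is also the check of the Activin-A treatment. Among 10 other matricellular genes tested at 12 hrs, 5 rose and 2 fell with Activin-A. Ccn2 (connective tissue growth factor) went from 132.7 to 489.2 CPM, Thbs1 (thrombospondin-1) from 572.7 to 1198 CPM (1.07, SE 0.06), Ccn1 rose by 0.92 (SE 0.08) and Fstl1, another SPARC relative, by 0.55 (SE 0.07). In contrast to Sparc, Fstl1 also rose with IFN-γ, from 228.4 to 438.9 CPM (0.95, SE 0.07, adjusted p = 3.3e-22). At 4 hrs 4 of 10 rose with Activin-A and 0 fell, namely Thbs1, Ccn2, Ccn1 and Fgf2, which encodes a growth factor rather than a matricellular protein in the strict sense. Spp1 (osteopontin) followed Sparc in falling with IFN-γ at 12 hrs, by 0.40 (SE 0.05, adjusted p = 2.94e-11), and IFN-γ called 2 of the 10 up and 2 down.

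Among receptors for these proteins, 4 of 10 tested rose with Activin-A at 12 hrs and 0 fell: Itgb5 (1.04, SE 0.12), Itgb1 (0.44, SE 0.06), Itgav (0.53, SE 0.09), which encode integrin chains that bind fibronectin and other matrix ligands, and Lrp1 (0.35, SE 0.07), an endocytic receptor. At 4 hrs 5 of 11 rose, with Itga5, which pairs with integrin β1 as the fibronectin receptor, added (0.55, SE 0.09). When IFN-γ was given with Activin-A for 12 hrs, Itgav fell by 0.66, Itgb5 by 0.60 and Itgb1 by 0.30 relative to Activin-A alone, 3 of 10 tested, next to 9.62% of all genes. IFN-γ by itself called 2 of 10 at 12 hrs, both downwards, next to 9.25% of all genes.

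Enzymes that build and cut proteoglycans were read in the same way. Activin-A at 4 hrs raised 3 of 30 glycosaminoglycan genes: Ust, a sulfotransferase (1.92, SE 0.25), Chsy1, a chondroitin synthase (0.75, SE 0.13), and Ext1, a heparan sulfate polymerase (0.61, SE 0.13), and at 12 hrs Chsy1 alone of 28 (0.50, SE 0.14). IFN-γ lowered Csgalnact1, which starts chondroitin chains, by 0.68 at 4 hrs and by 0.91 at 12 hrs, and raised Dse, which converts chondroitin to dermatan sulfate, by 0.61 at 12 hrs, which were 1 of 30 called at 4 hrs and 2 of 28 at 12 hrs, shares below those of all genes. Adamts1, a protease that cleaves versican, rose with IFN-γ from 23.4 to 66.3 CPM at 4 hrs (1.49, SE 0.20) and from 22.9 to 52.5 CPM at 12 hrs (1.17, SE 0.18), 1 of 13 proteases and inhibitors tested, of which IFN-γ called 2 up at 4 hrs and 3 up and 1 down at 12 hrs.

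Among 12 other proteoglycans tested, IFN-γ at 12 hrs raised 3 and lowered 3, with Agrn and Sdc2 higher and Esm1 and Sdc1 lower as the 4 of lowest adjusted p. Agrin, a heparan sulfate proteoglycan, rose by 0.79 (SE 0.17), whereas syndecan-1, a cell surface proteoglycan, fell by 0.52 (SE 0.12). Activin-A called 1 up (Gpc1, 0.37) and 1 down (Tgfbr3, -0.99) at 12 hrs. Of 13 genes of fibrillins, fibulins and elastic fibers, 3 rose with Activin-A at 12 hrs, led by Fbln5 (0.73, SE 0.16), while IFN-γ raised Loxl1 by 0.57 and lowered Fbn2, the relative of Fbn1, by 0.54.

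**Figure D4:**
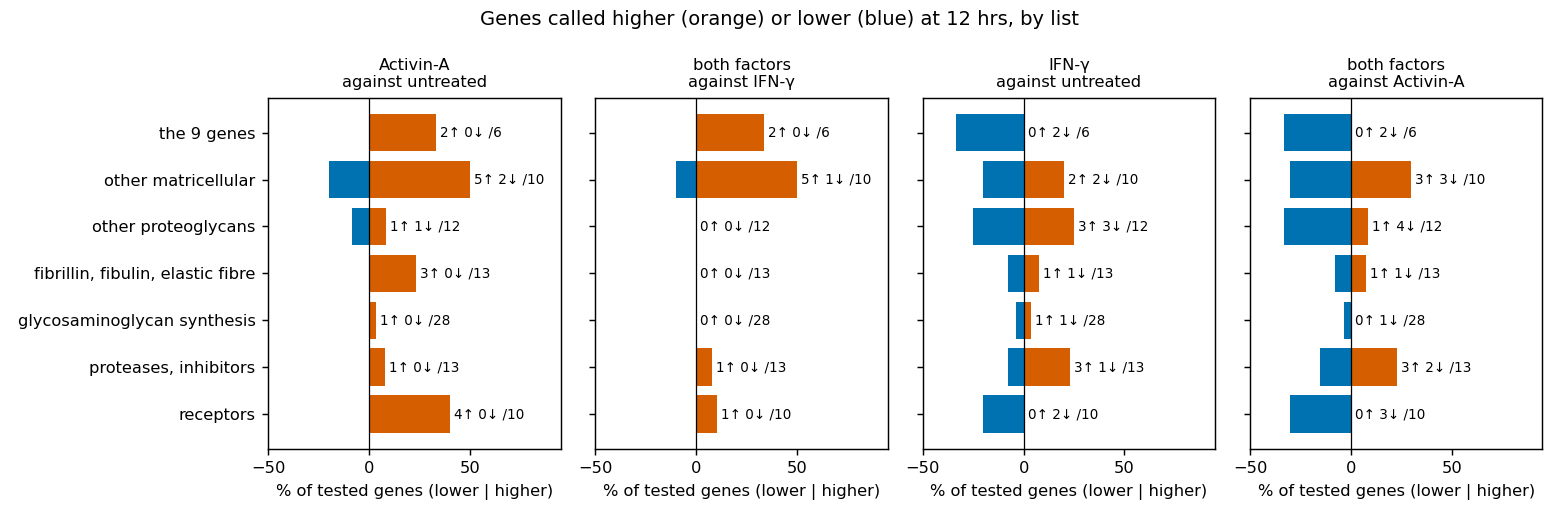
Share of tested genes called higher (to the right) or lower (to the left) at 12 hrs in 4 comparisons (horizontal axes, percent), for the 9 genes, of which 6 were tested, and 6 related lists, with the counts beside each bar. Activin-A called 5 of 10 other matricellular genes higher and 2 lower, and 4 of 10 receptors higher.

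The genes most similar to each of the 6 were sought over the 8 group means among genes with a mean of at least 20 CPM, as a description in which wells of a group and the pooled library are shared. For Bgn these were Actb (Pearson r = 0.97) and Rab11b (0.95), for Smoc2 Fut8 (0.98) and Tnfrsf23 (0.98), and for Sparc Anxa6 (0.97) and 1810058I24Rik (0.96). For Vcan they were Parp8 (0.97) and Fbxo9 (0.97), for Fn1 Tacc1 (0.96) and Cemip2 (0.95), and for Fbn1 Rhoq (0.94) and Itpr3 (0.93). These were the 2 highest of 6966 genes compared (6967 for Fbn1), so that high values are in part a product of the search. Over the 32 wells the same pairs had r between 0.29 (Fbn1 and Itpr3) and 0.88 (Smoc2 and Fut8), with 0.37 for Bgn and Rab11b. Actb encodes β-actin, often used as a reference gene.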

How the data were processed

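The authors deposited raw counts per gene of 32 YUMM3.3 wells, with no normalization. The submitters' processing notes name STAR 2.7.10b, featureCounts, DESeq2 1.36.0 and the genome build GRCm39 (mm39). The collapse of molecular identifiers, the strand setting and the annotation are not given in the sources used here. If duplicate reads were kept, counts are not independent molecules. Symbols and positions came from GENCODE M21 (GRCm38), another build than the authors', matched by Ensembl identifier. Genes annotated opposite to Vcan, Fn1, Smoc2, Tnc and Fbn1 were not in the count table.

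Counts were analysed in R 4.3.3 with edgeR 4.0.16 (filterByExpr, TMM, glmQLFit, glmQLFTest, Benjamini-Hochberg), over the 16 samples of a time or, for contrasts of times, all 32. Intervals of log2 fold changes are 95%. Alternatives were DESeq2 1.42.0, RLE normalization, no filter, at least 10 counts in every sample, a replicate block, all 32 or the 8 compared samples, an adjusted p under 0.01, and each well left out. The fits were tested on simulated data. The labels do not tie same-numbered wells to a shared culture or day.

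The 9 genes and the lists were chosen with earlier results of these data known. All 9 genes are named, at most the 4 called genes of lowest adjusted p per list and comparison, 2 similar genes for each gene tested, and Ccn2 and Irf1 as checks. Protein sequences were not used here.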

Additional observations from a re-analysis of the deposited data

Results flagged for a closer look

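In groups of 4 wells, 6 of 67 examined had a highest or lowest well whose gap to the nearest exceeded Dixon's 95% critical value, where chance gives about 1 in 20. Of these, 5 concern genes at the floor of detection, where the other wells held 0 or 1 counts: Dcn in Activin-A well 2 at 4 hrs (1.514 CPM, 1 count), in well 1 of the combined treatment at 4 hrs (2.085 CPM, 2 counts) and in Activin-A well 4 at 12 hrs (9.801 CPM, 8 counts), and Postn in Activin-A well 3 (1.02 CPM, 1 count) and in well 2 of the combined treatment (1.11 CPM, 1 count) at 12 hrs. The last is Sparc, at 2945 CPM in Activin-A well 1 at 12 hrs, compared to 2631 to 2684 CPM in the other 3 wells. Without that well the difference of Sparc from untreated cells was 0.05 on the log2 scale.

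In tests of the difference between 4 and 12 hrs, the effect of Activin-A on Bgn differed by 0.4902 (adjusted p = 0.0107) and the effect of IFN-γ on Sparc by -0.3095 (adjusted p = 0.00772), both on the log2 scale.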

How the results depend on the processing

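RLE normalization and at least 10 counts in every sample kept each count of called members and kept each count of called genes within 1.5 times. The replicate block did so too, except that members called for IFN-γ at 12 hrs went from 2 to 3, as they did without the filter and with the 8 compared samples alone. Same-numbered wells did not deviate together (mean r = -0.00, range -0.09 to 0.04, 48 pairs), and with the block Fn1 passed the threshold for IFN-γ at 12 hrs (-0.16, adjusted p = 0.0452) and Vcan with both factors against Activin-A at 4 hrs turned from -0.01 to 0.01942. The causes of the following changes were not tested. With DESeq2, called genes fell for Activin-A from 150 to 92 at 4 hrs and from 216 to 140 at 12 hrs, for both factors against IFN-γ from 74 to 46 and from 92 to 59, for both against Activin-A at 12 hrs from 863 to 569, for the interaction at 12 hrs from 1 to 0, over time in untreated cells from 457 to 295, and for Activin-A under IFN-γ over time from 9 to 5. Members called went from 0 to 1 for IFN-γ and from 1 to 0 for both against Activin-A at 4 hrs, where Vcan was 0.004201. Without the filter, 2 members were called for both against Activin-A at 4 hrs, 1 and 8 genes for the interaction at 4 and 12 hrs, and Bgn with IFN-γ at 12 hrs was -0.001291. With all 32 samples, 1 member was called for IFN-γ and 2 for both against Activin-A at 4 hrs, and 1 gene for the interaction at 4 hrs. With the 8 compared samples alone, members called at 4 hrs were 1 for IFN-γ, 2 for both against IFN-γ (120 genes) and 0 for both against Activin-A.

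At an adjusted p under 0.01, called genes were 86 for Activin-A and 40 for both against IFN-γ at 4 hrs, 51 for both against IFN-γ, 558 for both against Activin-A and 0 for the interaction at 12 hrs, 234 over time in untreated cells, and, for the change over time, 1 for the Activin-A effect, 32 for the IFN-γ effect and 3 for Activin-A under IFN-γ. Members called were 0 for both against Activin-A at 4 hrs, 1 over time in untreated cells and 0 for the change of the Activin-A effect.

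With each well left out in turn, members called at 4 hrs ranged from 1 to 2 for Activin-A, 0 to 1 for IFN-γ, 0 to 2 for both against Activin-A and 1 to 2 for both against IFN-γ, at 12 hrs from 2 to 3 for IFN-γ and for both against Activin-A, and over time from 1 to 2 in untreated cells and 0 to 1 for the Activin-A effect. Called genes ranged from 47 to 72 for both against IFN-γ at 4 hrs, 0 to 1 and 0 to 6 for the interaction at 4 and 12 hrs, 302 to 374 over time in untreated cells, 0 to 3 for the Activin-A effect, 35 to 54 for the IFN-γ effect and 3 to 18 for Activin-A under IFN-γ. Uncalled log2 fold changes near 0 that turned were Vcan with Activin-A at 4 hrs (-0.1114 to 0.1728), Vcan with both against Activin-A at 4 hrs (-0.1038 to 0.1797) and at 12 hrs (-0.07752 to 0.1), Smoc2 with IFN-γ at 4 hrs (-0.08134 to 0.04399), Fn1 with Activin-A at 12 hrs (-0.0009452 to 0.1412), Bgn with IFN-γ at 12 hrs (-0.01646 to 0.02852), Fbn1 with both against Activin-A at 12 hrs (-0.0207 to 0.2846) and Sparc with both against IFN-γ at 12 hrs (-0.02932 to 0.03478). Calls of Bgn, Smoc2 and Sparc within a time were kept in each of these fits. Depth limits Dcn, Tnc, Postn and Fbn1.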
